A study of Mus musculus with 50 samples.

Results

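Voltage-gated and potassium channels were followed in the hypothalamic paraventricular nucleus (PVN) of 2 inbred mouse strains before and after forced swimming. The members were all clones of the cDNA array, control spots aside, whose annotated name begins with that of a voltage-dependent calcium channel, a potassium channel (the voltage-gated, inwardly rectifying, large conductance and intermediate conductance names included), a sodium channel, a chloride channel or a hyperpolarization-activated channel. The rule found 78 clones of 53 genes among the 22824 clones tested. They comprised 14 clones of 9 calcium channel genes, 9 clones of 5 sodium channel genes, 19 clones of 15 voltage-gated potassium channel genes, 8 clones of 5 inwardly rectifying potassium channel genes, 6 clones of 5 two-pore potassium channel genes, 4 clones of 3 calcium-activated potassium channel genes, 3 clones of 3 hyperpolarization-activated (HCN) genes and 15 clones of 8 chloride channel genes. Of the 53 genes, 19 were spotted as several clones. A symbol was given to 51 genes, and all 51 symbols were found in RefSeq.

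Voltage-gated channels open in response to the membrane potential, and each is built from a pore-forming subunit and auxiliary subunits that set its number at the membrane and its gating. Sodium channels start the action potential, potassium channels end it and hold the resting potential, and calcium channels couple it to release of transmitter and peptide. In the PVN these currents shape the firing of the neuroendocrine neurones that release corticotropin-releasing hormone, vasopressin, oxytocin and thyrotropin-releasing hormone (Trh).

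The tested pools were DBA/2J mice killed 4 h or 8 h after stress, C57BL/6J mice killed 4 h or 8 h after stress and, for the strain comparison, non-stressed DBA/2J mice. Non-stressed DBA/2J and C57BL/6J mice served as the controls of their own strain. All were male, 3 to 5 months old and single housed, and the stress was 5 min of forced swimming. All groups were decapitated at the same clock time, so the 8 h groups swam earlier in the day than the 4 h groups. Hours after stress and clock time of the swim cannot be told apart. Each of the 6 RNA pools held the micropunched PVN and adjacent tissue of 6 animals, amplified in 2 rounds. The 5 comparisons had 10 arrays each, 5 in each dye orientation, all from the same pair of pools, so the standard errors (SE) and p-values below cover labelling and hybridisation only, compare pools and not conditions, and leave out the spread between animals. In bulk tissue, fewer cells of a type and less RNA per cell cannot be told apart.

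Directions follow the dyes of the labels, with DBA/2J over C57BL/6J and stressed over non-stressed mice. The signs printed in the study run the other way in all 5 comparisons, and the array files did not settle which is right. Real-time PCR of single genes in the study runs with its printed signs, against the direction followed here. So does an up-regulation that it reports from in situ hybridization without showing the values. The sign of every value below is therefore uncertain. With the sign turned, every "higher" and "lower" below changes places, while sizes, counts of calls and differences in size do not. Clones of 3 genes known to differ between the strains were not called in the comparison of non-stressed mice and so gave no help, with log2 ratios of -0.30 for Alad, -0.29 for Nnt and -0.11 for Gpnmb.

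The channel clones were mostly faint. A clone was taken as bright on an array when its log2 intensity, averaged over both dyes, passed the 95th percentile of that array's empty spots. By this measure 13 of 78 channel clones were bright on at least 25 of the 50 arrays, 65 on fewer and 11 on none. Cacna2d1 clone 1 and Kcnab2 were bright on all 50 arrays and Kcne1 on 49, and Kcnd2, a subunit of the A-type current singled out after its values were seen, on 46. The share of all clones that were bright on an array ran from 5.55 to 9.21% in the DBA/2J 8 h comparison and from 33.6 to 70.6% in the C57BL/6J 4 h comparison, so this measure was strict in the first and lenient in the second. For a clone that was not bright, a fitted log2 ratio sets spots near background against each other and is no measure of the size of a change. The median foreground intensity per array lay between 135 and 295 units in Cy5 and between 218 and 491 units in Cy3. The PVN peptides on the array were themselves not uniformly bright. The clone of Trh passed the empty spots on 25 arrays, that of Avp on 13 and that of Oxt on 3, whereas that of Resp18, a protein of the secretory pathway of endocrine cells, passed on 40.

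**Figure D1:**
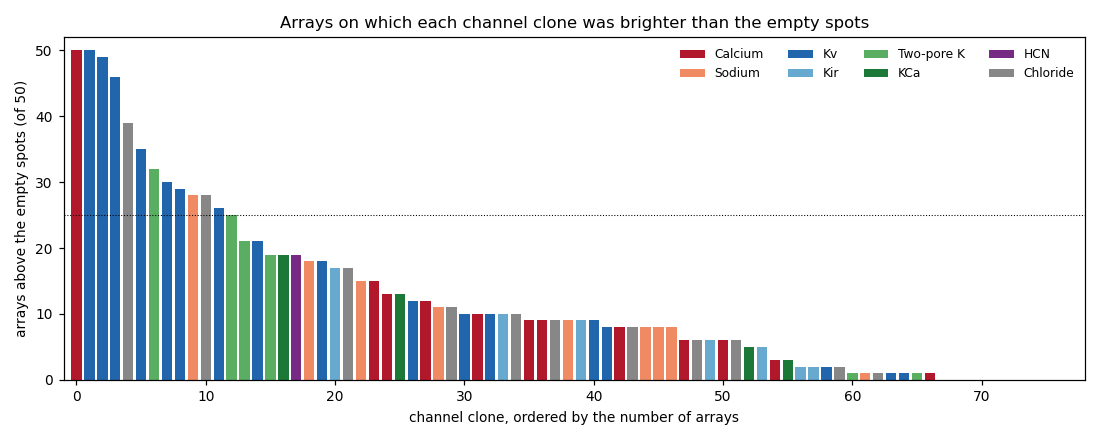
Number of the 50 arrays (vertical axis) on which each of the 78 channel clones (horizontal axis, ordered by that number, coloured by class) was bright, that is, above 95% of the empty spots. The dotted line marks 25 arrays, which 13 clones reached, and 11 clones have no bar.

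The results that passed the test turned on 5 genes, namely Cacna2d1 and Cacnb3, which encode auxiliary calcium channel subunits, and Kcnj9, Kcnq5 and Kcnab2, which encode potassium channel subunits. In the strain difference of the 4 h response, Cacna2d1 clone 1 and Cacnb3 clone 3 passed the test, the latter on DBA/2J spots at background. The promoters of these 2 genes are shown for that reason. They span 250 bases before to 50 bases after each start in RefSeq (GRCm38.p6), at chr5:15934441-15934740 for Cacna2d1 and at chr15:98632078-98632377 and chr15:98634517-98634816 for the 2 starts of Cacnb3, all on the plus strand. Capitals mark the GC box (GGGCGG or CCGCCC, searched on both strands, matches may overlap).
Cacna2d1: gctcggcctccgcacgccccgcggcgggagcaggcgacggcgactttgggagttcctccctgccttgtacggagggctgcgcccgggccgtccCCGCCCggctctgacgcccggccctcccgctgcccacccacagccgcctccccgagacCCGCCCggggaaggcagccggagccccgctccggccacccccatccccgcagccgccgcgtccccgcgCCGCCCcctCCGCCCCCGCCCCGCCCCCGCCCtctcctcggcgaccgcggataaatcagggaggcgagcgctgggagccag
Cacnb3 start 1: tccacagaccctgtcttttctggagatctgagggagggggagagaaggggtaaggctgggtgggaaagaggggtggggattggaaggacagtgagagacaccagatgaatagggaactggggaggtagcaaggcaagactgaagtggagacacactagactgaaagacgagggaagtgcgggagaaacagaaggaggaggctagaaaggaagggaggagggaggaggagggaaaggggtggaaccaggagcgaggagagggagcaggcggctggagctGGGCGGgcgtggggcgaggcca
Cacnb3 start 2: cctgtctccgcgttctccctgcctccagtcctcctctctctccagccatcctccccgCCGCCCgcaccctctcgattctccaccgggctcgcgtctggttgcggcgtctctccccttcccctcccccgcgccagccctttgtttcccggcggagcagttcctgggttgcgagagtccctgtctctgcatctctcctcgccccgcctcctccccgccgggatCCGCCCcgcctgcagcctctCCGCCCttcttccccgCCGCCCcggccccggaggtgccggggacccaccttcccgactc
The Cacna2d1 promoter held 7 GC boxes with 80.0% G and C, and the Cacnb3 promoters held 1 and 4, with 59.7 and 72.0% G and C. A GC box occurred in 35.7% of all 32851 promoters and in 29 of the 57 promoters of the 39 channel genes that matched by symbol. The half-site of the glucocorticoid receptor (AGAACA or TGTTCT, both strands) was in none of these 3 windows, in 19.0% of all promoters and in 7 of the 57. These matches describe the letters of the windows only.

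In non-stressed mice, 2 of the 78 channel clones were called, both with the lower value in DBA/2J. A call needed a log2 ratio of 0.5 or more in size and, in limma, a p under 0.05 after Benjamini-Hochberg adjustment across the 22824 clones. Among all clones, 828 (3.63%) were called, 367 higher and 461 (2.02%) lower in DBA/2J, so the share of channel clones was close to that of the array. The channel clones had a median log2 ratio of 0.03, a range of -1.06 to 0.55, and 53 of 78 lay within 0.25 of 0, against a median of 0.01 for all clones. At an unadjusted p under 0.05 there were 13 channel clones (16.7%, against 15.4% of all clones), 4 higher and 9 lower in DBA/2J.

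Kcnq5 encodes a pore subunit of the M current, a slow potassium current that restrains repetitive firing. Its log2 ratios of DBA/2J over C57BL/6J ran from -0.92 over a median of -0.43 to -0.27. All 10 arrays were below 0, and the clone was bright on 8 of them. The fitted log2 ratio was -0.50 (SE 0.13, limma adjusted p = 0.045), at the limit of both thresholds, and it lost the call when any 1 of the 10 arrays was left out (adjusted p = 0.05 to 0.11). Within the 7 arrays of the first day in the file headers it was -0.44 (adjusted p = 0.37). With print-tip loess it was -0.31 (adjusted p = 0.19) and with the authors' processed values -0.42 (adjusted p = 0.16), neither called.

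Kcnj9 encodes a G protein-gated inward rectifier subunit (GIRK3), through which inhibitory receptors hyperpolarize neurones. Its clone 2 had log2 ratios of -1.90 to 0.09 with a median of -1.15, below 0 on 9 of 10 arrays. Neither pool was brighter than the empty spots on any of the 10 arrays, so the call (adjusted p = 0.0061) rests on spots at background and no size is given. It was called with each array left out. Kcnj9 clone 1 ran from -1.42 to 1.21 with a median of -0.44, crossing 0, and was not called at -0.28 (SE 0.24, adjusted p = 0.64). Within the first day in the file headers clone 2 was not called (adjusted p = 0.19).

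**Figure D2:**
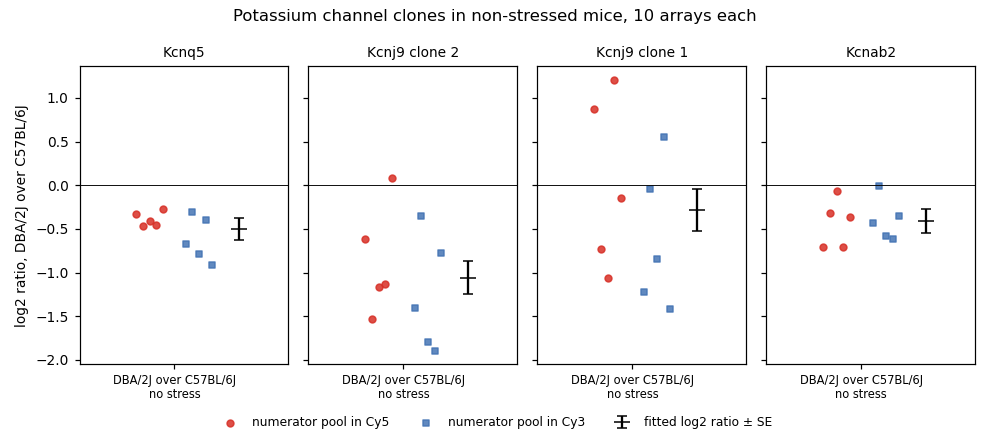
Log2 ratio of DBA/2J over C57BL/6J in non-stressed mice (vertical axis) on each of 10 arrays for 4 potassium channel clones, circles with DBA/2J (the numerator pool) in Cy5 and squares with it in Cy3; the black mark is the fitted log2 ratio ± SE. All arrays of Kcnq5 and Kcnab2 lie below 0, Kcnj9 clone 2 has 1 array above 0 and Kcnj9 clone 1 crosses 0.

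Other channel clones came near the thresholds without passing. Kcne1, an auxiliary subunit that slows the opening of Kcnq1 channels, ran from -0.11 over 0.47 to 1.28, above 0 on 9 of 10 arrays, with a fitted log2 ratio of 0.55 (SE 0.16, adjusted p = 0.085). Hcn3, a pore subunit of the hyperpolarization-activated current, ran from 0.00 over 0.41 to 1.38 and was fitted at 0.49 (SE 0.16, adjusted p = 0.12). Both had higher values in DBA/2J on nearly all arrays, and Hcn3 was bright on 5 of 10. Kcnab2, the beta subunit that binds Kv1 channels and aids their transport to the axon, ran from -0.71 over -0.40 to -0.01, all 10 arrays below 0, at -0.41 (SE 0.14, adjusted p = 0.12). Kcnn4, the intermediate conductance calcium-activated channel, was at -0.50 (SE 0.17, adjusted p = 0.14) with arrays from -1.59 over -0.28 to 0.08. Clns1a, which takes part in assembling splicing particles and was first described as a chloride current inducer, differed between its clones. Clone 3, never bright, was at -0.53 (SE 0.15, adjusted p = 0.058), clone 2 at -0.44 (SE 0.19, adjusted p = 0.26) and clone 1 at 0.12 (SE 0.18, adjusted p = 0.82).

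No calcium, sodium or two-pore channel clone was called in non-stressed mice. The 14 calcium channel clones had a median of 0.06 and ran from -0.35 to 0.37, with none at an unadjusted p under 0.05. The 9 sodium channel clones ran from -0.40 to 0.21, and the 4 clones of Scn8a, the sodium channel of the axon initial segment, were at -0.02, -0.40, 0.21 and 0.05. The inwardly rectifying clones had the lowest class median, -0.24, with 6 of 8 below 0. Other cell types moved in the same comparison. Of 35 oligodendrocyte clones 7 were called higher in DBA/2J (Mbp at 1.10) and 2 lower (Cnp at -1.06, Mobp at -0.89). Of 26 astrocyte clones 4 were called higher, all of Glul, and both called blood clones were of Hbb-b1. None of 24 neuron clones was called (6 at an unadjusted p under 0.05 in limma). Among 8 PVN peptide clones 1 was called higher (Resp18 at 0.90) and 1 lower (Scg2 at -0.81, its other clone at -0.19). The part of these in the channel values was not tested.

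**Figure D3:**
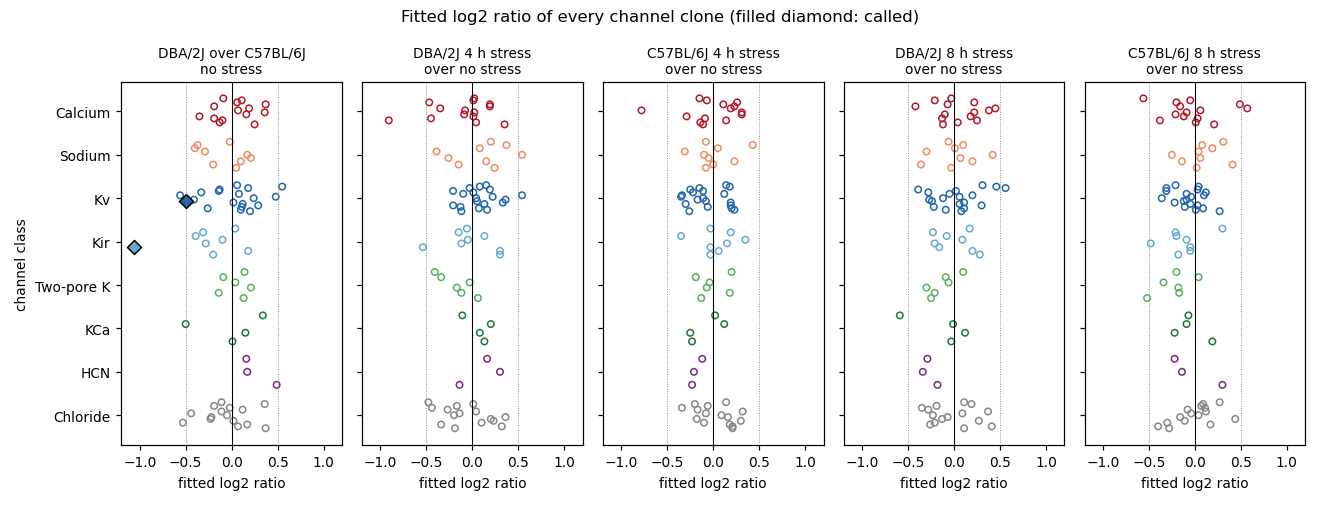
Fitted log2 ratio (horizontal axis) of all 78 channel clones in the 5 comparisons (panels), 1 point a clone, by channel class (vertical axis); filled diamonds are called and dotted lines mark log2 ratios of -0.5 and 0.5. The only filled points are Kcnq5 and Kcnj9 clone 2 in the comparison of non-stressed strains.

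After stress, no channel clone was called in any of the 4 comparisons with the non-stressed mice of the same strain. At 4 h, 0 of 78 were called in DBA/2J (0.153% of all clones) and 0 of 78 in C57BL/6J (0.289% of all clones). At 8 h, 0 of 78 were called in DBA/2J (0.158% of all clones) and 0 of 78 in C57BL/6J (0.0832% of all clones). With backgrounds of this size a list of 78 clones holds few calls or none. In simulated data the fit recovered only 4 to 16% of changes with a log2 ratio of 0.5 in these 4 comparisons. That size is itself the threshold of a call, which lowers the recovery. At 0.75 it was 22 to 50%, at 1 it was 56 to 70% and at 1.5 it was 90 to 100%. Changes of 0.5 to 1 could therefore have gone uncalled. At an unadjusted p under 0.05 in limma there were 9 channel clones at 4 h in DBA/2J (11.5%, against 10.6% of all clones) and 4 in C57BL/6J (5.13%, against 12.3%). At 8 h there were 18 in DBA/2J, 9 higher and 9 lower (23.1%, against 12% of all clones), and 6 in C57BL/6J (7.69%, against 9.27%). Of the 18 at 8 h in DBA/2J, 7 were among the 19 voltage-gated potassium channel clones and 4 among the 14 calcium channel clones, in the comparison with the fewest bright channel clones (5 of 78 on at least 5 arrays). Within the 4 arrays of the second day in the file headers the count was 4 of 78, against 1626 of 22824 clones. After averaging the arrays within a dye orientation it was 4 of 78, against 1200 of 22824. The higher share was not seen in these smaller fits. It remained in others, with 17 of 78 without background subtraction (2708 of 22824 clones) and 16 of 78 with print-tip loess (2717 of 22824). With the authors' values it was 13 of 59 (2431 of 18777), and with all 50 arrays in 1 fit 13 of 78 (2493 of 22824). With the stressed pool in Cy5 only, it was 12 of 78 (2280 of 22824). With the stressed pool in Cy3 only, it was 9 of 78 (2411 of 22824), close to the share of all clones, so the higher share did not remain there. By the methods' t-test with the same thresholds the number of calls was 1 at 4 h in C57BL/6J, Cacnb2 clone 1, and 0 in the other 3. The medians of the channel clones were 0.02 at 4 h and -0.03 at 8 h in DBA/2J, and -0.05 and -0.06 in C57BL/6J.

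Cacna2d1 encodes the alpha-2/delta-1 subunit, which raises the number of calcium channels at the membrane. At 4 h, clone 1 had log2 ratios of stressed over non-stressed mice from -0.84 over -0.44 to -0.08 in DBA/2J, all 10 arrays below 0. In C57BL/6J the same clone ran from -0.09 over 0.24 to 0.56, above 0 on 9 arrays. The 2 sets overlapped by 1 array each, and all other DBA/2J arrays lay below all C57BL/6J arrays. Neither response was called alone, with -0.47 in DBA/2J (SE 0.12, adjusted p = 0.14) and 0.26 in C57BL/6J (SE 0.09, adjusted p = 0.25). Their difference was called at -0.73 (SE 0.13, limma adjusted p = 0.0031). It was also called with each of the 10 same-numbered pairs of arrays, 1 array from each comparison, left out (adjusted p = 0.0073 to 0.014). Other pairs were not tried. Clone 2 of the gene, bright on 9 arrays of the C57BL/6J 4 h comparison and on no other, differed by -0.55 (SE 0.25, adjusted p = 0.32).

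Cacnb3 encodes a beta subunit, the cytosolic partner that helps calcium channel pores reach the membrane. Clone 3 ran from -2.17 over -0.95 to 0.08 at 4 h in DBA/2J, below 0 on 9 of 10 arrays. In C57BL/6J it ran from -0.49 over 0.14 to 0.43. Only in C57BL/6J was the clone bright at 4 h, on all 10 arrays in both pools, and in DBA/2J the stressed pool passed the empty spots on 0 arrays and the non-stressed pool on 1. Neither response was called (adjusted p = 0.13 in DBA/2J and 0.67 in C57BL/6J), and their difference was called with the lower value in DBA/2J (adjusted p = 0.03). Since the DBA/2J spots lay at background, no size is given for this difference. The call held with 4 of the 10 same-numbered array pairs left out (adjusted p = 0.027 to 0.093). The other clones of the gene did not share it, with differences of 0.17 for clone 1 (SE 0.27, adjusted p = 0.84) and -0.40 for clone 2 (SE 0.28, adjusted p = 0.60).

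These were the 2 channel clones of 78 called for a strain difference of the 4 h response, both lower in DBA/2J, against 535 of all clones (2.34%), 271 of them lower (1.19%). At an unadjusted p under 0.05 there were 10 channel clones (12.8%, against 13.6%). Kcnd2, named after its values were seen, had a difference of 0.57 (SE 0.15, adjusted p = 0.052). At 8 h the strain difference was called for 0 of 78 channel clones (0.6% of all clones), with 9 at an unadjusted p under 0.05 in limma (11.5%, against 10.4%). Astrocyte and neuroendocrine genes differed in the same contrast at 4 h, with Aldoc at -0.83 and 2 clones of Glul at -0.61 and -0.70 (3 of 26 astrocyte clones called, all lower), Trh at -1.08 and Resp18 at -0.54. Of 24 neuron clones 1 was called, Eno2 at -0.70. The part of these in the calcium subunit values was not tested.

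The time course was compared within each strain, the difference between the 8 h and the 4 h response sharing the same non-stressed pool. In DBA/2J, 3 of 78 channel clones were called (1.0% of all clones), 2 higher at 8 h (0.561% of all clones) and 1 lower (0.443%), and 8 had an unadjusted p under 0.05 (10.3%, against 12.1%). Cacna2d1 clone 1, which ran from -0.22 over 0.26 to 0.51 at 8 h, was higher at 8 h than at 4 h by 0.69 (SE 0.12, adjusted p = 0.0094). It was called with each same-numbered pair of arrays left out. Clone 2 had a difference of 0.80 (SE 0.29, adjusted p = 0.23). Cacnb3 clone 3, from -0.56 over 0.21 to 0.96 at 8 h, was called higher (adjusted p = 0.047), again with no size given, since it was bright on none of the 20 arrays of the DBA/2J stress comparisons, whereas clones 1 and 2 differed by -0.05 (SE 0.27) and -0.01 (SE 0.36). Kcnab2 was lower at 8 h than at 4 h by a log2 difference of -0.64 (SE 0.15, adjusted p = 0.045). The last 2 calls were lost with any same-numbered pair of arrays left out (adjusted p = 0.058 to 0.14 for Cacnb3 and 0.056 to 0.12 for Kcnab2). That of Kcnab2 was also lost with print-tip loess (-0.50, adjusted p = 0.072) and with the authors' processed values (-0.47, adjusted p = 0.056). Other lists held calls in the same contrast, with Aldoc (1 of 26 astrocyte clones) at 0.70 and Trh (1 of 8 PVN peptide clones) at 0.81. The Trh clone was bright on 7 arrays at 4 h and on 0 at 8 h in DBA/2J, so its fitted value is no measure of size. Of 24 neuron clones 1 was called, at -0.62, whose name on the array is synaptosomal-associated protein. Their part in the channel values was not tested.

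Kcnab2 also differed between dye orientations. At 4 h in DBA/2J its arrays ran from -0.27 over 0.32 to 1.21, and at 8 h from -0.84 over -0.22 to 0.23. With the stressed pool in Cy5 the means were 0.00 at 4 h and -0.64 at 8 h, and with it in Cy3 they were 0.73 and 0.09. Values with the stressed pool in Cy3 were thus the higher ones at both times, and the difference between the times was of similar size in either orientation. Orientation was partly tied to the day in the file headers. At 8 h the 3 arrays of day 1 all had the stressed pool in Cy5 and the 3 of day 3 all in Cy3. At 4 h the 2 arrays of day 2 all had it in Cy3. The parts of dye and day were not separated. In C57BL/6J, 0 of 78 channel clones were called between 8 h and 4 h (0.499% of all clones), with 10 at an unadjusted p under 0.05 in limma (12.8%, against 10.7%).

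**Figure D4:**
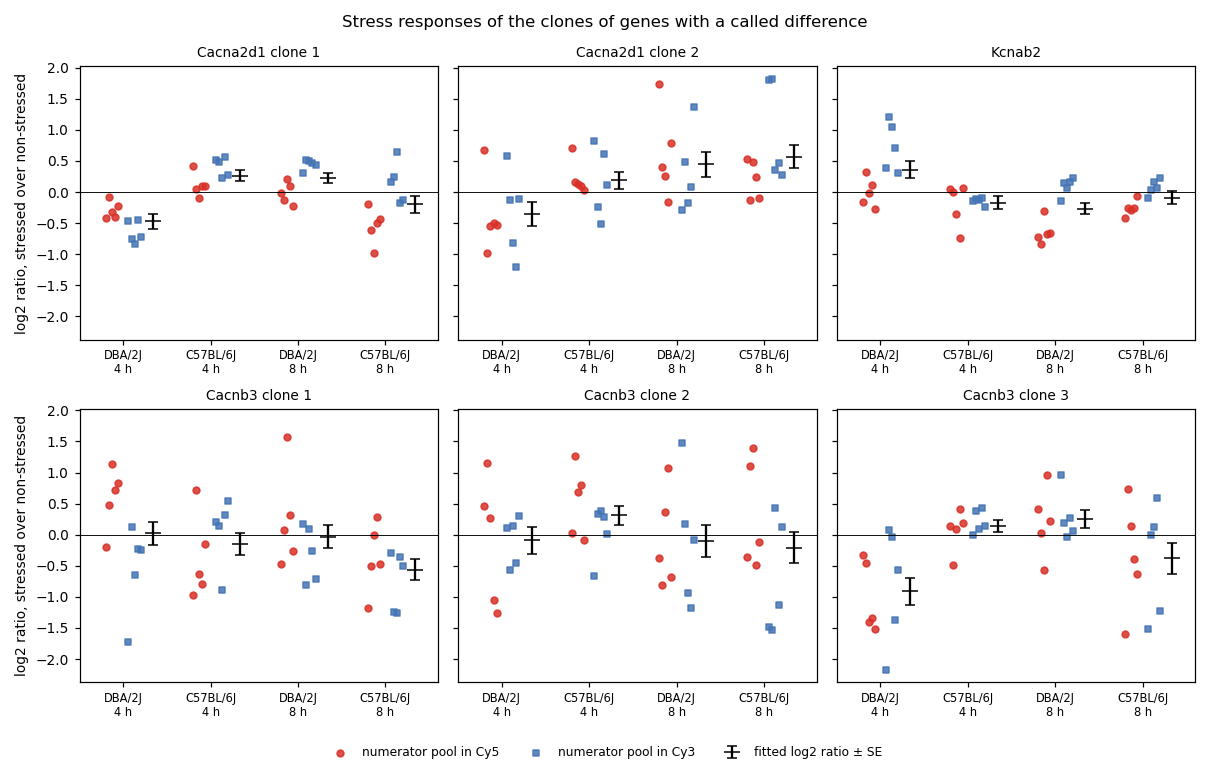
Log2 ratio of stressed over non-stressed mice (vertical axis) on each of 10 arrays for all clones of Cacna2d1, Kcnab2 and Cacnb3, in DBA/2J and C57BL/6J at 4 h and 8 h (horizontal axis), circles with the stressed (numerator) pool in Cy5 and squares with it in Cy3; the black mark is the fitted log2 ratio ± SE. At 4 h Cacna2d1 clone 1 and Cacnb3 clone 3 lie mostly below 0 in DBA/2J and around or above 0 in C57BL/6J, and the other clones of Cacnb3 do not.

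Several clones lay on 1 side of 0 on nearly all arrays of a stress comparison without a call. Cacnb2, another beta subunit, was the lowest channel clone at 4 h in C57BL/6J, where clone 1 ran from -1.95 over -0.60 to -0.29, all 10 arrays below 0. The stressed pool passed the empty spots on 1 array and the non-stressed pool on 8. It was fitted at -0.78 (SE 0.15, adjusted p = 0.061), and at -0.08 in DBA/2J (SE 0.16, adjusted p = 0.91). Clone 2 was at -0.29 in C57BL/6J (SE 0.19, adjusted p = 0.60). Kcne1 at 8 h in DBA/2J ran from 0.22 over 0.43 to 0.84, all 10 arrays above 0 and all bright. Its fitted log2 ratio was 0.46 (SE 0.09, adjusted p = 0.08), below the threshold of size as well, against 0.04 in C57BL/6J (SE 0.11, adjusted p = 0.95), and the strain difference of 0.42 was not called (SE 0.12, adjusted p = 0.16).

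Gamma subunits and sodium channels gave further single values. Cacng2 (stargazin, which also brings AMPA receptors to the synapse) ran from 0.00 over 0.47 to 1.21 at 8 h in C57BL/6J and was fitted at 0.49 (SE 0.15, adjusted p = 0.34). Cacng1, known as the gamma subunit of skeletal muscle, was at -0.42 (SE 0.13, adjusted p = 0.21) at 8 h in DBA/2J and bright on none of the 50 arrays. Cacnb3 clone 1 was at -0.56 at 8 h in C57BL/6J (SE 0.17, adjusted p = 0.33). These faint clones were low or high on 9 or 10 arrays each but far from the adjusted threshold. Scn7a, the sodium-sensing channel that the array names type VI alpha, ran from -0.51 over 0.62 to 1.18 at 4 h in DBA/2J, above 0 on 9 arrays but brighter than the empty spots on none, and was fitted at 0.54 (SE 0.16, adjusted p = 0.22). It was at 0.42 at 8 h in DBA/2J (SE 0.17, adjusted p = 0.35), and at -0.10 and -0.25 in C57BL/6J at 4 h and 8 h.

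**Figure D5:**
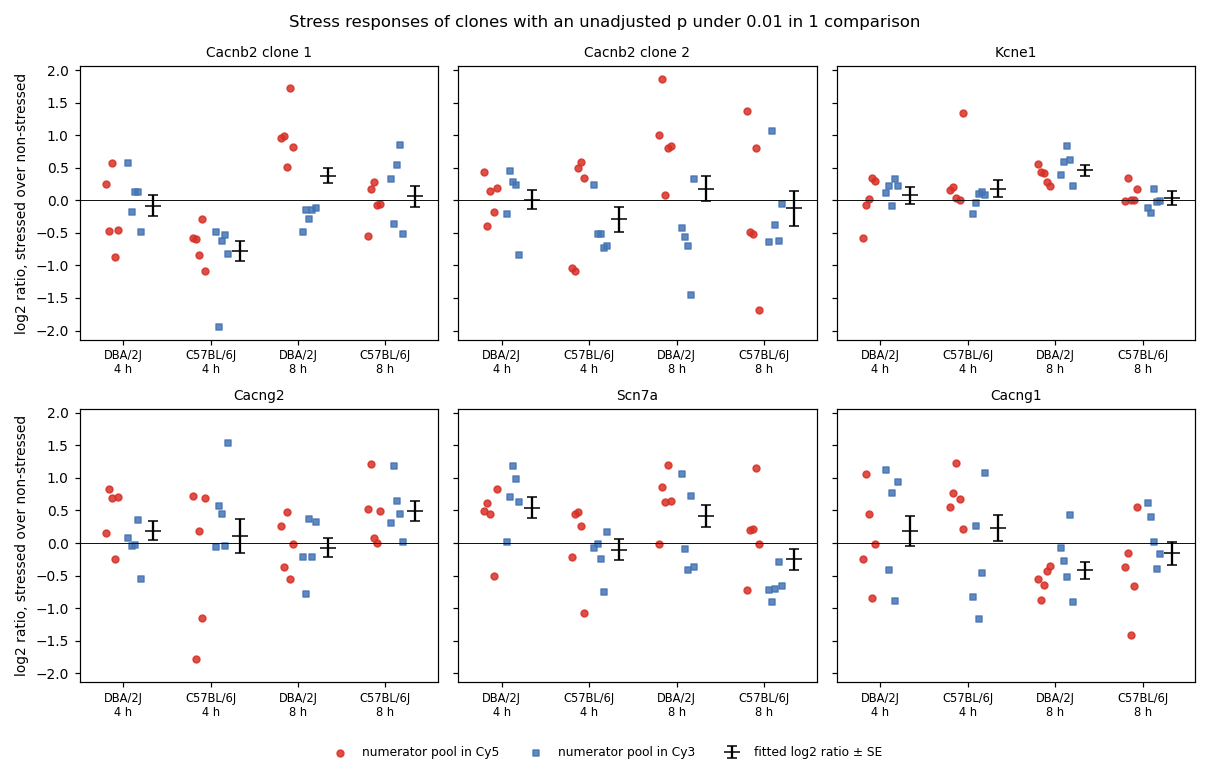
Log2 ratio of stressed over non-stressed mice (vertical axis) on each of 10 arrays for 6 clones in DBA/2J and C57BL/6J at 4 h and 8 h (horizontal axis), circles with the stressed (numerator) pool in Cy5 and squares with it in Cy3; the black mark is the fitted log2 ratio ± SE. Cacnb2 clone 1 at 4 h in C57BL/6J and Kcne1 at 8 h in DBA/2J have all 10 arrays on 1 side of 0, and none of the 6 was called in these comparisons.

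Clones of the remaining classes were not called either. Clcn4, an endosomal chloride and proton exchanger bright on 39 arrays, lay between -0.19 and 0.07 in all 5 comparisons. Kcnk4 (the mechanosensitive two-pore channel TRAAK) was at 0.06 and -0.25 in DBA/2J and at -0.13 and -0.52 in C57BL/6J at 4 h and 8 h, and no value was called. Kcnj16, an inward rectifier subunit sensitive to pH, lay between -0.31 and 0.35 over both clones and all 5 comparisons. The 3 HCN clones were all below 0 at 8 h in DBA/2J, between -0.34 and -0.18, and at 4 h in C57BL/6J, between -0.23 and -0.12, with none at an unadjusted p under 0.05 in limma.

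Clones of the same gene are not replicates, since they can lie in different parts of a transcript and differ in brightness. Among the 19 genes with several clones, all clones had the same sign in 9 genes in the comparison of non-stressed strains. The number was 10 at 4 h and 8 at 8 h in DBA/2J, and 8 and 7 in C57BL/6J. The median spread between the clones of a gene was 0.29 to 0.32 in these 5 comparisons, and the widest 0.62 to 0.93.

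Genes that act with these channels were read from lists given by name. Of 61 clones of 26 channel partners (calmodulins, calcineurin, G protein subunits, contactin and the like), 4 were called higher in DBA/2J than in C57BL/6J without stress and 1 lower (3.63% of all clones were called). Calm2 was at 0.68 and 0.59 and Nedd4l, a ubiquitin ligase of sodium channels, at 0.69, with Gnb2, a G protein beta subunit, at -0.78. The strain difference of the 4 h response held 5 higher and 1 lower (2.34% of all clones were called), with Cntn1 at 0.81 and 0.73 and Ppp3cb, a catalytic subunit of calcineurin, at 1.04 and 0.66. Between 8 h and 4 h, 3 partner clones were called lower in DBA/2J (1.0% of all clones were called), among them Ppp3cb at -1.04 and Cntn1 at -0.84, and 5 higher in C57BL/6J (0.499% of all clones), among them Cntn1 at 0.60 and 0.58. A clone the array names only synaptosomal-associated protein was called at 8 h in both strains, lower in DBA/2J (-0.56) and higher in C57BL/6J (0.89). With any 1 array left out, the calls over all clones at 8 h in DBA/2J fell from 36 to 1. Of 19 clones of 16 other ion channels, Trpm2, a cation channel, was called higher in non-stressed DBA/2J at 1.06, lower for the strain difference of the 8 h response at -1.34 and higher at 8 h than at 4 h in C57BL/6J at 0.96. Itpr1, a calcium release channel, was called lower at 8 h than at 4 h in DBA/2J at -0.70, and no other clone of the list was called. Of 23 clones of 14 pumps and calcium clearance genes, Atp1b2, a sodium pump subunit, was the only call, at -0.82 for the strain difference of the 4 h response. Clones bright on at least 5 arrays were fewest at 8 h in DBA/2J, with 17 of 61 partners, 5 of 19 other channels and 2 of 23 pumps. They were most at 4 h in C57BL/6J, with 50, 14 and 11. Brightness is not given for single clones of these lists, so some of their values may be no measure of size.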

How the data were processed

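The authors hybridised 50 cDNA arrays with 2 dyes, scanned them and deposited for each spot the intensity and local background in Cy5 and Cy3, not normalised. They also deposited a table of processed values for 19047 spots, on a log2 scale by its values and normalised by a procedure described elsewhere, used here as an alternative only. In 4 of the 50 files Cy3 comes first, and the dye named in each file was used. Each array had 24192 spots, of which 1368 were controls.

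Background correction used normexp (offset 50), followed by global loess of the log2 ratios within each array. Each comparison was fitted in limma 3.58.1 (R 4.3.3, statmod 1.5.0) with a term for the dye, over 10 arrays, and differences between responses over the 20 arrays of both, which share the non-stressed pool where the strain is the same. The Benjamini-Hochberg adjustment ran over all 22824 clones. The fit was tested on simulated data. Python 3.11.15, pandas 2.3.3, numpy 2.4.6 and matplotlib 3.10.9 made summaries and figures. The number of arrays limits the precision, with a median SE of 0.167 to 0.19 for the channel clones.

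Named were the clones called anywhere, those the study names, those with an unadjusted p under 0.01 and 1 sign on at least 9 arrays (up to 8 per comparison), the brightest of each class, and all clones of these genes (28 clones of 17 genes). Channel partners, other channels, pumps, PVN peptides and markers of neurons, astrocytes, oligodendrocytes, microglia, vessels, choroid plexus, blood and thalamus were matched by name, and up to 3 called genes of a list were named. Members and lists were chosen with earlier results of these data known. Of 9 thalamus clones 2 were called higher in non-stressed DBA/2J (Tcf7l2 at 0.67 and 1 of Lef1 at 0.74). Another clone of Lef1 was called lower there (-0.69), so the calls of this gene were of opposite sign (3.63% of all clones were called). Tcf7l2 was called lower at 8 h in DBA/2J (0.158% of all clones) and for the strain difference of the 8 h response (0.6%). With any 1 array left out, 1 of all clones was called at 8 h in DBA/2J. The calls there of Tcf7l2 and of the synaptosomal-associated protein clone thus never both held. Of 10 microglia, 13 vascular and 10 choroid clones 0 were called in any comparison or difference in limma, with 0 to 2, 0 to 4 and 0 to 2 at an unadjusted p under 0.05.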

Additional observations from a re-analysis of the deposited data

Results flagged for a closer look

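Single arrays stood apart from the other 9 in 12 of the 140 pairs of named clone and comparison (the gap to the nearest array over the whole range exceeded the critical value of Dixon's test, as chance alone does in about 5% of pairs). The log2 ratio of that array in the comparison of non-stressed strains was 1.84 for Clns1a clone 1. At 4 h in DBA/2J it was -1.65 for Clcn4 and -0.58 for Kcne1. At 4 h in C57BL/6J it was -1.95 for Cacnb2 clone 1, -0.49 for Cacnb3 clone 3, -0.62 for Clcn4, 1.34 for Kcne1 and -0.74 for Kcnab2. At 8 h in DBA/2J it was 1.58 for Cacnb3 clone 1. At 8 h in C57BL/6J it was 1.14 for Clns1a clone 2, 0.54 for Kcnj16 clone 1 and -0.87 for Scn8a clone 3.

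Responses differed between the strains at 4 h, DBA/2J minus C57BL/6J, for Cacna2d1 clone 1 (-0.73) and Cacnb3 clone 3 (-1.05). They differed between the times in DBA/2J, 8 h minus 4 h, for Cacna2d1 clone 1 (0.69), Cacnb3 clone 3 (1.16) and Kcnab2 (-0.64). Each difference was itself fitted in limma and called, and those of Cacnb3 clone 3 rest on DBA/2J spots at background, so their fitted values are no measure of size.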

How the results depend on the processing

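No alternative turned the sign of a called value. The median of the channel clones, near 0 throughout, has no stable sign, for example in non-stressed mice, at -0.05 with median centring and -0.06 with the authors' values, against 0.03, and at 8 h in C57BL/6J, at 0.02 with the stressed pool in Cy3 only, against -0.06. In the comparison of non-stressed strains, the 2 calls among channel clones became 6 with median centring, 1 with scaling between arrays or no dye term, and 0 with either dye orientation alone, with the arrays of each orientation averaged or within the first day in the file headers. It stayed at 2 with other members where Kcnq5 lost its call, to Clns1a clone 3 (no background subtraction, print-tip loess) or to Kcne1, higher (authors' values), and where the filter on dim clones took out Kcnj9 clone 2 and Kcne1 was called. At 4 h in C57BL/6J, Cacnb2 clone 1 became the 1 call with the authors' values, a filter on dim clones, the methods' t-test or all 50 arrays in a single fit. At 4 h in DBA/2J there was 1 call with the authors' values (Cacna2d1 clone 1) and there were 2 with all 50 arrays (Scn7a higher, Cacnb3 clone 3 lower). For the strain difference of the 4 h response, 2 became 3 with print-tip loess, scaling or the authors' values, where Kcnd2 was called higher. With the filter on dim clones or all 50 arrays 2 became 4, with Kcnd2 and Kcnab2 both called higher. For the strain difference of the 8 h response 0 became 1 with the filter, and for 8 h minus 4 h in C57BL/6J 0 became 1 with all 50 arrays. The 3 calls for 8 h minus 4 h in DBA/2J became 0 with no dye term and 2 in 6 other settings. Of these, Cacnb3 clone 3 was lost with no background subtraction, median centring, scaling or the filter on dim clones, and Kcnab2 with print-tip loess or the authors' values. Without 1 array or same-numbered pair of arrays the counts were 1 to 2, 1 to 2 and 1 for the 3 results with calls and 0 for the others. The fits within a day were chosen after seeing the data, and no channel clone was called in any of them. With the day as a random block the calls named in the text were kept, and Clns1a clone 3 was called too. The t-test, single orientations and averages were run for the 5 comparisons only.

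The replicate numbers did not pair the arrays, since same-numbered arrays correlated at -0.016 to 0.021 and at most 1 of 10 correlated best with its own number. With the number as a replicate block, the 2 calls for the strain difference of the 4 h response and the 3 for 8 h minus 4 h in DBA/2J became 0, and the other 2 differences stayed at 0.

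Over all clones, the number called ran from 35 (1 dye orientation) to 1234 (all 50 arrays) in the comparison of non-stressed strains, against 828. At 4 h it ran from 0 to 355 in DBA/2J, against 35, and from 0 to 125 in C57BL/6J, against 66. At 8 h it ran from 0 to 114 in DBA/2J, against 36, and from 0 to 197 in C57BL/6J, against 19. For the differences it ran from 127 to 729 (strains at 4 h, where median centring called 223 higher and 351 lower, against 264 and 271), 30 to 216 (strains at 8 h), 0 to 370 (times in DBA/2J) and 15 to 179 (times in C57BL/6J). Faint spots limit most channel values, since 65 of 78 clones passed the empty spots on fewer than 25 of 50 arrays. The cause of these shifts was not tested.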
